A study of Mus musculus with 6 samples.

Results

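The genes described here are 31 writers and readers of DNA and histone methylation in splenic erythroid cells of mice with sickle cell disease. They were chosen by gene symbol from a list of names: DNA methyltransferases, proteins that read methylated CpG, histone lysine methyltransferases and arginine methyltransferases. All 31 were found among the 35178 gene symbols counted, each on 1 line, and all 31 were among the 13721 genes with enough reads to be tested. RNA came from spleen cells carrying Ter119, a surface marker of the erythroid lineage. There were 3 libraries wild type for Nrf2 (WT) and 3 with the Nrf2 knockout (KO), and by the series design both groups carried sickle cell disease. The animals were 2 to 3 months old, on a mixed background of B6 and 129P2. The labels do not say how the knockout allele and the sickle globin were made, whether animals were pooled or whether each library is a separate animal. The p-values below therefore cover only library-to-library spread, part of which may be technical.

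Methylation of DNA and of histones is written by enzymes that take the methyl group from S-adenosylmethionine. Dnmt1, guided by Uhrf1 to hemimethylated sites, copies CpG methylation after replication, and Dnmt3a and Dnmt3b add it at new sites. Maturing erythroblasts condense their nucleus and lose DNA methylation over their last divisions, so maintenance enzymes have long been of interest there. The series title names L-2-hydroxyglutarate, a metabolite that competes with 2-oxoglutarate in the dioxygenases that remove methyl marks. The writers and readers lie on the other side of that balance, and their transcript levels were compared between WT and KO.

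Library totals ran from 16364199 to 21712608 reads in genes. Nfe2l2, which encodes Nrf2, was present in every library, at 71.0 to 98.7 CPM in WT (CPM is a gene's read count scaled to a common library size, here by TMM) and 63.4 to 76.8 in KO (log2 difference -0.23, adjusted p = 0.556 by edgeR). No label says which exons were removed, so reads elsewhere in the gene check nothing about the genotype. Xist, the RNA of the inactive X, was at 784 to 1169 CPM of library totals in WT. The third KO library had 917, while the first had 15.8 and the second 0.702, and chromosome Y genes summed to 6.91 CPM in the third, 212 in the first and 272 in the second, against 0.289 to 1.20 in WT. Results are therefore also given for KO replicate 3 alone against WT. The 14 erythroid markers were all detected and summed to 53173 to 54118 CPM in WT and 37444 to 40006 in KO. By edgeR 11 of 14 were lower at an unadjusted p under 0.05, against 5.98% of all genes tested. Past an adjusted p of 0.05 there were 0 by edgeR (0.0219% of all genes) and 8 by DESeq2 (2.89% of all genes). Marker sums for other cells overlapped between the groups, at 1110 to 1280 CPM in WT and 1233 to 1673 in KO for 10 macrophage genes (1100.0 to 1217 and 1189 to 1490.0 without Marco, which was at 391 CPM in KO replicate 1 and at 10.4 to 62.3 in the other libraries), 311 to 974 and 472 to 635 for 8 neutrophil genes, 146 to 335 and 155 to 188 for 7 platelet genes, 41.9 to 189.7 and 25.6 to 76.8 for 7 B cell genes, 25.0 to 35.0 and 27.2 to 41.2 for 9 T and NK cell genes, and 187 to 229 and 214 to 241 for 6 genes of early progenitors. Gene by gene, all 7 B cell and all 7 platelet markers had log2 differences below 0 (medians -1.13 and -0.60). So did 7 of 8 neutrophil markers (-0.28). Above 0 were 9 of 10 macrophage markers (0.23), 5 of 6 early progenitor markers (0.16) and 5 of 9 T and NK cell markers (0.10). None of these markers was at 0 in all libraries, and in bulk RNA fewer cells of a type and less RNA per cell cannot be told apart.

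Across the whole set, levels differed far more between genes than between genotypes. Compared per kilobase of exon, Uhrf1 was highest at a mean of 117 CPM per kilobase over the 6 libraries (range 100.2 to 128), then the methyl-CpG reader Mbd2 (85.4), Dnmt1 (61.6), the polycomb subunit Suz12 (50.5) and Mbd3 (45.3). The lowest were the lysine methyltransferase Smyd3 (0.652), Dnmt3b (0.871) and Dnmt3a (1.58), and the highest stood 179-fold above the lowest. The median member was at 7.75 CPM per kilobase, where the median of 13568 tested genes with a known length was 3.95, and 24 of 31 members were above that median. Neighbours in this order could seldom be told apart: in 25 of 30 neighbouring pairs the ranges over the 6 libraries overlapped. The 5 steps without overlap lay below Uhrf1, Mbd2, Mbd3, the H3K79 methyltransferase Dot1l and Dnmt3a. Exon lengths count every annotated exon once, which lowers the per-kilobase level of genes with many alternative exons.

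**Figure D1:**
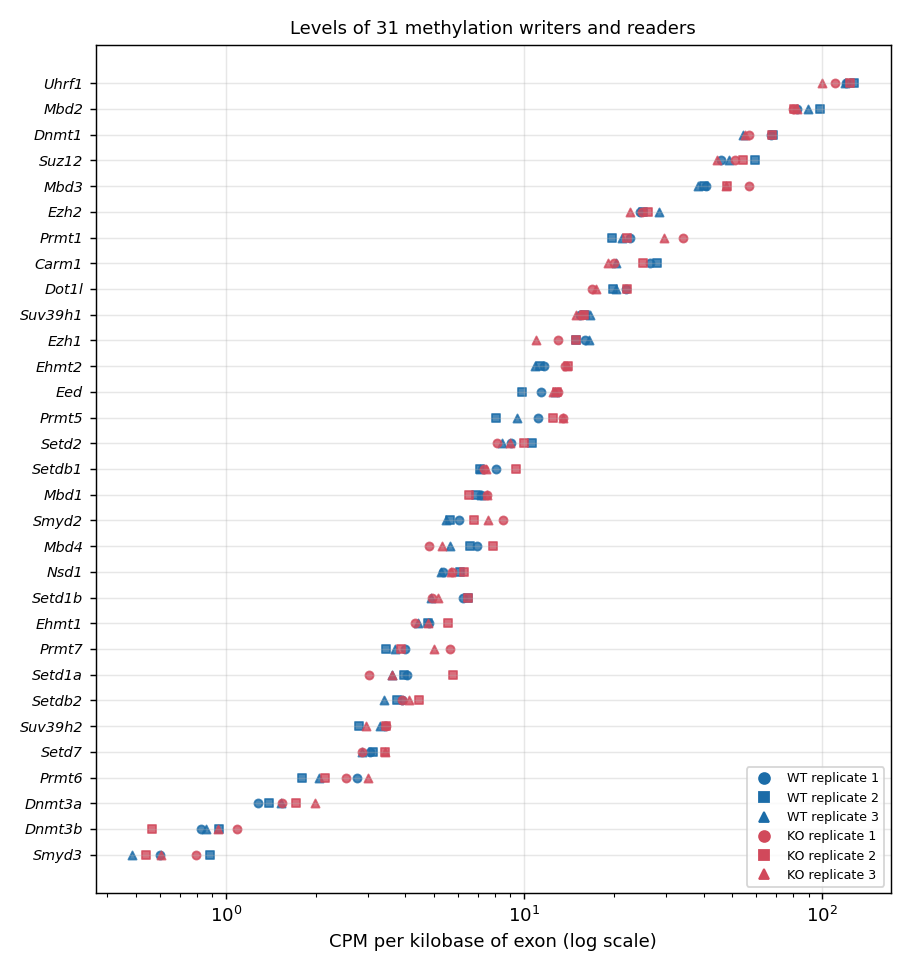
Level of each of the 31 genes in every library, in CPM per kilobase of exon on a log scale, ordered by the mean over 6 libraries; blue marks WT, red marks KO, and the shape gives the replicate. Uhrf1 (100.2 to 128) and Smyd3 (0.484 to 0.888) form the ends, and for most genes the ranges of the red and blue points overlap.

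No member passed the threshold of an adjusted p under 0.05 between KO and WT by edgeR's quasi-likelihood test, where 3 of all 13721 genes did (0.0219%). Adjusted p-values of the members ran from 0.220 to 0.986. DESeq2 also called 0 members, against 2.89% of all genes, with a lowest adjusted p of 0.0771 for Prmt5. It gave 25 members an adjusted p and left 6 without one. At an unadjusted p under 0.05 by edgeR there were 7 members (22.6% of 31, against 12.2% of all genes), 6 of them higher in KO (6.25% of all genes) and 1 lower (5.98% of all genes). The KO and WT ranges did not overlap for 7 members (22.6%, against 18.2% of all genes), 5 higher in KO (10.3% of all genes) and 2 lower (7.91% of all genes). The median log2 difference over the members was 0.049, and over all genes tested 0.021. With TMM 17 members were above 0 and 14 below, and by library totals 26 and 5. Every log2 difference lay between -0.29 and 0.46, and the 95% interval of all 31 stayed within 1 log2 unit of 0 on either side; for 16 it stayed within 0.5. Scaled to library totals in place of TMM, the median of all genes was 0.15 and that of the members 0.18, which is the same shift for both. With that scaling 8 members were higher at an unadjusted p under 0.05 (15.7% of all genes) and 11 without overlap (21.4% of all genes), and 0 were lower by either rule.

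**Figure D2:**
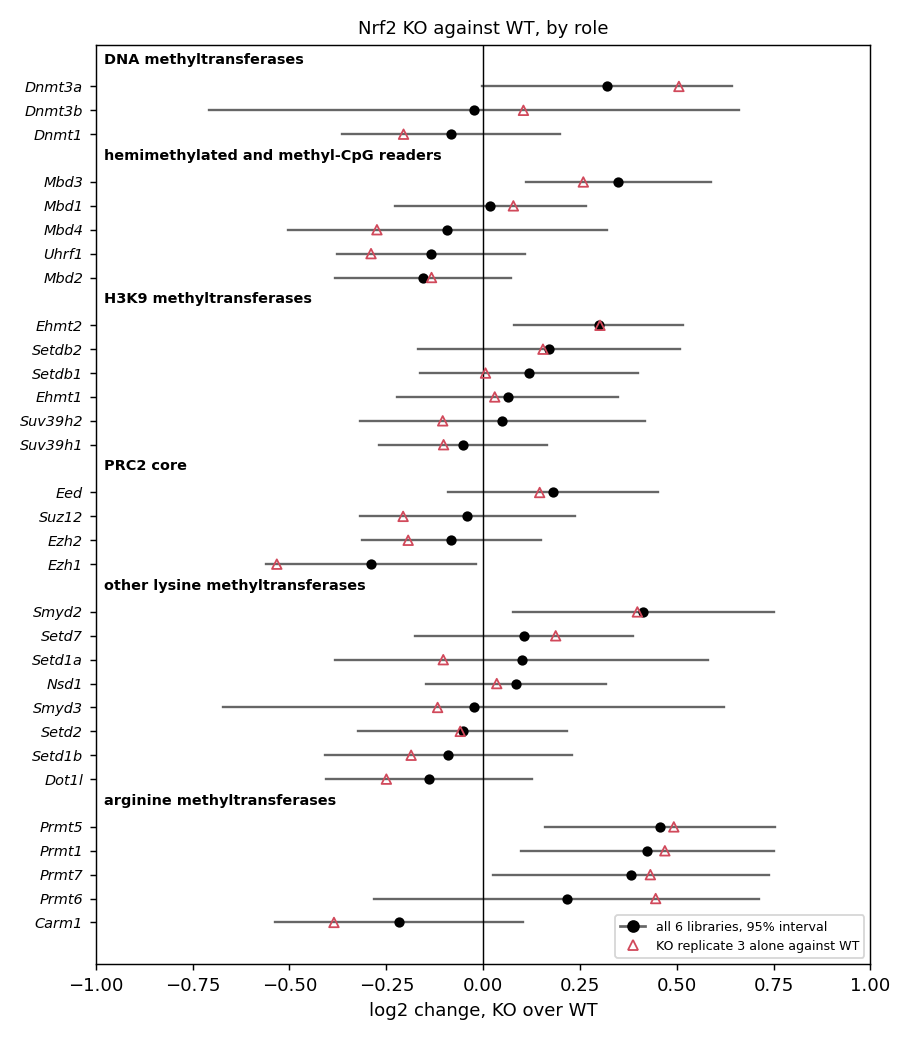
Log2 difference of KO over WT for each gene, grouped by role; the black point and bar are the estimate and 95% interval from all 6 libraries, and the open red triangle is KO replicate 3 alone against WT. Prmt5 (0.46) is farthest to the right and Ezh1 (-0.29) farthest to the left, and none passed the adjusted threshold.

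The maintenance pair of DNA methylation took about the same share of the members' reads in every library. Together Uhrf1 and Dnmt1 made up 29.0% to 32.4% of the members' summed CPM, which was 2975 to 3247 in WT and 2870 to 3270 in KO. Dnmt1, on chromosome 9 from 20907209 to 20959888 (mm10), stood at 497, 506 and 401 CPM in WT replicates 1, 2 and 3 and at 419, 501 and 406 CPM in the KO replicates. Its groups overlapped: WT replicates 1 and 2 and KO replicate 2 lay close together at the top and the other 3 libraries close together below (log2 difference -0.083, 95% interval -0.36 to 0.20, adjusted p = 0.853 by edgeR, and 0.046 by library totals). Uhrf1, on chromosome 17 from 56303321 to 56323486, stood at 512, 546 and 506 CPM in WT and 471, 527 and 427 in KO. KO replicate 3 was its lowest library and KO replicate 2 lay inside the WT range (log2 difference -0.13, 95% interval -0.38 to 0.11, adjusted p = 0.684 by edgeR). The 14 S phase and cycling markers were lowest in KO replicates 1 and 3, as was Uhrf1 but not Dnmt1, whose lowest library was WT replicate 3. These markers summed to 12744, 12930 and 12134 CPM in WT and 10770, 13071 and 10995 CPM in KO. Of these 14, 0 had an unadjusted p under 0.05, and the median log2 difference was -0.055 with TMM and 0.075 by library totals. Their part in the levels of Dnmt1 and Uhrf1 was not tested.

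Transcripts of the enzymes that methylate new sites were among the lowest of the members per kilobase of exon. For Dnmt3a this order rests on an exon length of 16642 bases. In mean CPM it stood above Smyd2, which is higher per kilobase. Dnmt3a, on chromosome 12 from 3806007 to 3914443, had 21.4, 23.1 and 25.5 CPM in WT and 25.7, 28.5 and 33.1 CPM in KO. Each KO library was above each WT library, though KO replicate 1 exceeded WT replicate 3 by little (log2 difference 0.32, SE 0.147, unadjusted p = 0.0519 and adjusted p = 0.411 by edgeR). For KO replicate 3 alone the log2 difference was 0.51, and without KO replicate 3 it was 0.21. An annotated antisense gene, Dnmt3aos, shares 0.799% of the exon bases. Dnmt3b, on chromosome 2, had 4.22, 4.83 and 4.38 CPM in WT and 5.57, 2.88 and 4.81 CPM in KO, so the KO libraries lay on both sides of WT and the 95% interval ran from -0.71 to 0.66. Set against the maintenance enzyme within each library, where scaling cancels, the ratio of Dnmt3a to Dnmt1 CPM was 0.0429, 0.0458 and 0.0637 in WT and 0.0614, 0.0569 and 0.0816 in KO. These ranges overlapped (exact two-sided permutation p = 0.3; the smallest that 3 against 3 can give is 0.1). The ratio was chosen after the values were seen.

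Among the proteins that read methylated DNA, Mbd3 and Mbd2 had ranges that did not overlap, in opposite directions. Mbd3, which in mammals works in the NuRD remodelling complex and binds methylated CpG poorly, lies on chromosome 10 from 80392539 to 80399550. It had 81.2, 80.0 and 76.1 CPM in WT and 112, 95.3 and 94.7 CPM in KO, with all KO libraries above WT and KO replicate 1 highest (log2 difference 0.35, SE 0.108, unadjusted p = 0.00805, adjusted p = 0.236 by edgeR). Without KO replicate 1 its log2 difference was 0.24, with an unadjusted p above 0.05, and for KO replicate 3 alone 0.26. Mbd2, which binds methylated CpG and takes Mbd3's place in a related complex, had 265, 316 and 287 CPM in WT and 257, 258 and 264 CPM in KO. The KO libraries were close together and just below WT replicate 1 (log2 difference -0.16, 95% interval -0.38 to 0.07, adjusted p = 0.596 by edgeR). Without WT replicate 2 Mbd2 was at -0.085, and scaled to library totals at -0.024. Mbd1, another methyl-CpG binder, had 46.4 to 48.2 CPM in WT and 43.8 to 50.5 in KO. Mbd4, a glycosylase that removes thymine from G:T mismatches left by deaminated methylcytosine, was the lowest reader per kilobase. It had 36.7, 34.9 and 29.8 CPM in WT and 25.3, 41.7 and 27.96 CPM in KO, with KO replicate 2 above and the other KO libraries below the WT range.

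Enzymes that methylate lysine 9 of histone H3 mark silent chromatin, and Ehmt2 (G9a) was the most closely replicated difference in this group. Ehmt2, on chromosome 17 from 34898469 to 34914052, had 63.8, 62.3 and 59.7 CPM in WT and 75.2, 77.0 and 76.4 CPM in KO. The lowest KO library stood well above the highest WT library, and the SD was 2.07 CPM in WT and 0.916 in KO (log2 difference 0.30, SE 0.0991, unadjusted p = 0.0117, adjusted p = 0.262 by edgeR; exact two-sided permutation p = 0.1). Leaving out any single library kept it between 0.27 and 0.32, and for KO replicate 3 alone it was 0.30. Ehmt1 (GLP), the partner with which G9a makes mono- and dimethylation, had 38.9, 38.8 and 35.8 CPM in WT and 34.9, 45.0 and 38.6 CPM in KO, and its groups overlapped. Suv39h1, a trimethylating enzyme, was the highest of the group per kilobase and the only member on the X chromosome (8061171 to 8074760). It had 81.5, 84.5 and 88.0 CPM in WT and 82.5, 83.7 and 78.9 CPM in KO. The libraries with and without Xist lay together (log2 difference -0.052, 95% interval -0.27 to 0.17), and an antisense gene shares 14.6% of its exon bases. Its paralog Suv39h2, lowest of the group per kilobase, had 15.0, 12.4 and 14.5 CPM in WT and 15.2, 15.2 and 13.004 CPM in KO. Setdb1, which silences retroelements, and the less studied Setdb2 had log2 differences of 0.12 and 0.17 and overlapping ranges.

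Polycomb repressive complex 2 trimethylates lysine 27 of histone H3 through Ezh2 or its paralog Ezh1, with Eed and Suz12 as core partners. Ezh1, on chromosome 11 from 101191115 to 101226463, was the only member lower in KO at an unadjusted p under 0.05. It had 119, 111.4 and 123 CPM in WT and 96.7, 110.8 and 81.5 CPM in KO. KO replicate 2 lay just below the WT range and KO replicate 3 was far below it (log2 difference -0.29, SE 0.123, unadjusted p = 0.0379, adjusted p = 0.381 by edgeR). Without KO replicate 3 the log2 difference was -0.19, without KO replicate 2 it was -0.41, and for KO replicate 3 alone -0.53. Scaling to library totals gave -0.16 with overlapping ranges, and the unadjusted p was above 0.05 there and without WT replicate 1, WT replicate 3, KO replicate 1 or KO replicate 3. Ezh2, on chromosome 6 from 47530139 to 47595341, had 164, 167 and 189.9 CPM in WT and 166, 174 and 152 CPM in KO, with overlap (log2 difference -0.082, 95% interval -0.31 to 0.15). Suz12 had 225, 294 and 241 CPM in WT and 252, 268 and 219.6 in KO, and Eed, the lowest of the complex per kilobase, had 43.7, 37.6 and 48.6 CPM in WT and 49.7, 49.4 and 47.9 in KO. Neither separated the groups. In human erythroid cells the complex is known to pass from EZH2 to EZH1 as they mature, so the paralogs were also set against each other within each library. The ratio of Ezh1 to Ezh2 CPM was 0.727, 0.667 and 0.647 in WT and 0.582, 0.637 and 0.537 in KO. All KO ratios were below all WT ratios, by a log2 difference of -0.22 (-0.28 to -0.16 with any single library left out), with an exact two-sided permutation p of 0.1, the smallest this design can give. The ratio in KO replicate 2 was only just below that in WT replicate 3. In CPM, Ezh1 alone already had no overlap between groups, in either direction the case for 18.2% of all genes tested. This ratio does not depend on scaling, but it was chosen after the values were seen. Its p is therefore no separate evidence.

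Nrf2 binds antioxidant response elements, and their core was looked for in the promoters of the members. RefSeq (GRCm38.p6) gives a window from 250 bases before to 50 after the start for 25 of the 31 genes; Mbd1, Mbd2, Setd1b, Nsd1, Smyd3 and Carm1 have no entry. The core TGACNNNGC, on either strand, was in a window of 4 of 25 members (16%) and of 14% of all 27025 genes. The 4 were both Ezh paralogs and both Suv39h paralogs, and for none did the match overlap an E2F match. The promoters of Ezh1 and Ezh2 are shown because both hold the core and their ratio is described above. That ratio was chosen after the values were seen, and its link to the matches was not tested. The capitals mark the core, and both genes lie on the minus strand.
Ezh1 (chr11:101226414-101226713): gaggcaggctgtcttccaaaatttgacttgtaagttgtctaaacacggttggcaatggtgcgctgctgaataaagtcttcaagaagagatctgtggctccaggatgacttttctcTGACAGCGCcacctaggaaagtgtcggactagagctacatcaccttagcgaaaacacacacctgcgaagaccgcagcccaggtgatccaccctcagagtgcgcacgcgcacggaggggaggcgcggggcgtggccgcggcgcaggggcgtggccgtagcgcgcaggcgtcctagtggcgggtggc
Ezh2 (chr6:47594981-47595280): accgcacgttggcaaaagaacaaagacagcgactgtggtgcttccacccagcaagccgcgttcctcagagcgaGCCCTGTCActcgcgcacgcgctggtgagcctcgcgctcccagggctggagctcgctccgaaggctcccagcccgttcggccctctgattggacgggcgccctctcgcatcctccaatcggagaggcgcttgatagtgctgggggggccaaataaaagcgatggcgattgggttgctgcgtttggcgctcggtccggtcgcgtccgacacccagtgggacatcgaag
In Ezh1 the match TGACAGCGC begins at position -135 from the start, and in Ezh2 it lies on the opposite strand, as GCCCTGTCA, from position -177. Suv39h1 has a match at -84 and Suv39h2 one at 7. The E2F motifs TTTGGCGC or TTTCCCGC, on either strand, were in windows of Dnmt1, Ezh2 and Suz12, which is 12% of the 25 members and 1.8% of all genes. All 25 members had more CpG in their richest window (15 to 49, median 33) than the median gene (8). The motif shares and the CpG median are over all 27025 genes with a window, not over the genes tested. Genes with windows as rich in CpG were not compared. These matches are descriptions of the sequence and show no binding.

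Several of the other lysine methyltransferases place marks on active genes, and some also methylate proteins other than histones. Smyd2, which methylates histones and also p53, lies on chromosome 1 from 189880492 to 189922363 and had 16.5, 15.3 and 14.9 CPM in WT and 23.2, 18.5 and 20.5 CPM in KO. All KO libraries were above WT (log2 difference 0.41, SE 0.153, unadjusted p = 0.0207, adjusted p = 0.321 by edgeR), and KO replicate 3 alone gave 0.40. Among the edgeR fits with a single library left out, the unadjusted p was above 0.05 without WT replicate 3 or KO replicate 1. An annotated antisense gene covers 30.0% of the Smyd2 exon bases, and the library kit does not mark strand. Dot1l, which methylates H3K79 in transcribed genes, was the highest of this group per kilobase, with 192, 173 and 177 CPM in WT and 147, 192 and 152 CPM in KO. KO replicate 2 reached the highest WT value and the other KO libraries were below WT (log2 difference -0.14, 95% interval -0.40 to 0.13). Smyd3 was lowest, with 5.50, 8.15 and 4.45 CPM in WT and 7.31, 4.94 and 5.56 CPM in KO. Setd1b, which methylates H3K4, had 75.2, 78.5 and 58.8 CPM in WT and 59.1, 78.2 and 62.3 CPM in KO. As for Dnmt1, its high libraries were WT replicates 1 and 2 and KO replicate 2. Its paralog Setd1a was at 24.5 to 27.4 CPM in WT and at 20.5, 39.3 and 24.5 CPM in KO, but 52.3% of its exon bases are shared with other annotated genes. For the H3K36 methyltransferases Setd2 and Nsd1 the log2 differences were -0.052 and 0.085, and for Setd7, which monomethylates H3K4 and other proteins, 0.11, all with overlapping ranges.

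Arginine methyltransferases had the highest median of the 6 roles: 4 of 5 log2 differences were above 0, with a median of 0.38. At an unadjusted p under 0.05 by edgeR, 3 of 5 were higher, beside 6.25% of all genes. By DESeq2 and limma-voom 2 of 5 were higher at that p, without Prmt7. Over all genes such a p, in either direction, was found for 12.0% by DESeq2 and 12.2% by limma-voom. Prmt5, the main source of symmetric dimethylarginine, lies on chromosome 14 from 54507187 to 54517525. It had 44.1, 31.9 and 37.6 CPM in WT and 53.4, 49.4 and 53.3 CPM in KO, with all KO libraries above WT (log2 difference 0.46, SE 0.135, 95% interval 0.16 to 0.75, unadjusted p = 0.00601, adjusted p = 0.220 by edgeR). Its log2 difference was 0.35 without WT replicate 2, up to 0.58 without any other single library and 0.49 for KO replicate 3 alone, with an unadjusted p under 0.05 in all 16 alternatives. Prmt1, the enzyme behind most asymmetric dimethylarginine, lies on chromosome 7 from 44975989 to 44986568 and had 77.4, 67.7 and 73.1 CPM in WT and 117, 75.8 and 101 CPM in KO. KO replicates 1 and 3 were above WT and KO replicate 2 was inside the WT range (log2 difference 0.42, SE 0.149, unadjusted p = 0.0157, adjusted p = 0.294 by edgeR). It was 0.25 without KO replicate 1 and 0.57 without KO replicate 2, and the unadjusted p was above 0.05 when KO replicate 1, KO replicate 3 or WT replicate 2 was left out. Prmt7, which makes monomethylarginine, lies on chromosome 8 from 106210936 to 106252794 and had 24.4, 21.0 and 22.7 CPM in WT and 34.5, 23.7 and 30.6 CPM in KO. The same KO replicate 2 was inside the WT range (log2 difference 0.38, SE 0.162, unadjusted p = 0.0380, adjusted p = 0.381 by edgeR), and without KO replicate 1 it was 0.23. The unadjusted p of Prmt7 was above 0.05 in 8 of 16 alternatives, among them DESeq2 and limma-voom. Prmt6, which methylates histone H3 arginine 2 and was lowest of the group per kilobase, had 11.6, 7.53 and 8.58 CPM in WT and 10.6, 9.03 and 12.6 CPM in KO, with overlap. An antisense gene shares 23.4% of its exon bases, and Yipf2, also antisense, 21.1% of those of Carm1. Carm1, a coactivator of transcription that methylates histone H3, was the exception in sign. It had 128, 136 and 98.4 CPM in WT and 97.5, 121 and 92.5 CPM in KO, again high in WT replicates 1 and 2 and KO replicate 2 (log2 difference -0.22, 95% interval -0.54 to 0.10). By library totals Carm1 was at -0.089, and with single libraries left out it ran from -0.36 without KO replicate 2 to -0.12 without WT replicate 2.

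**Figure D3:**
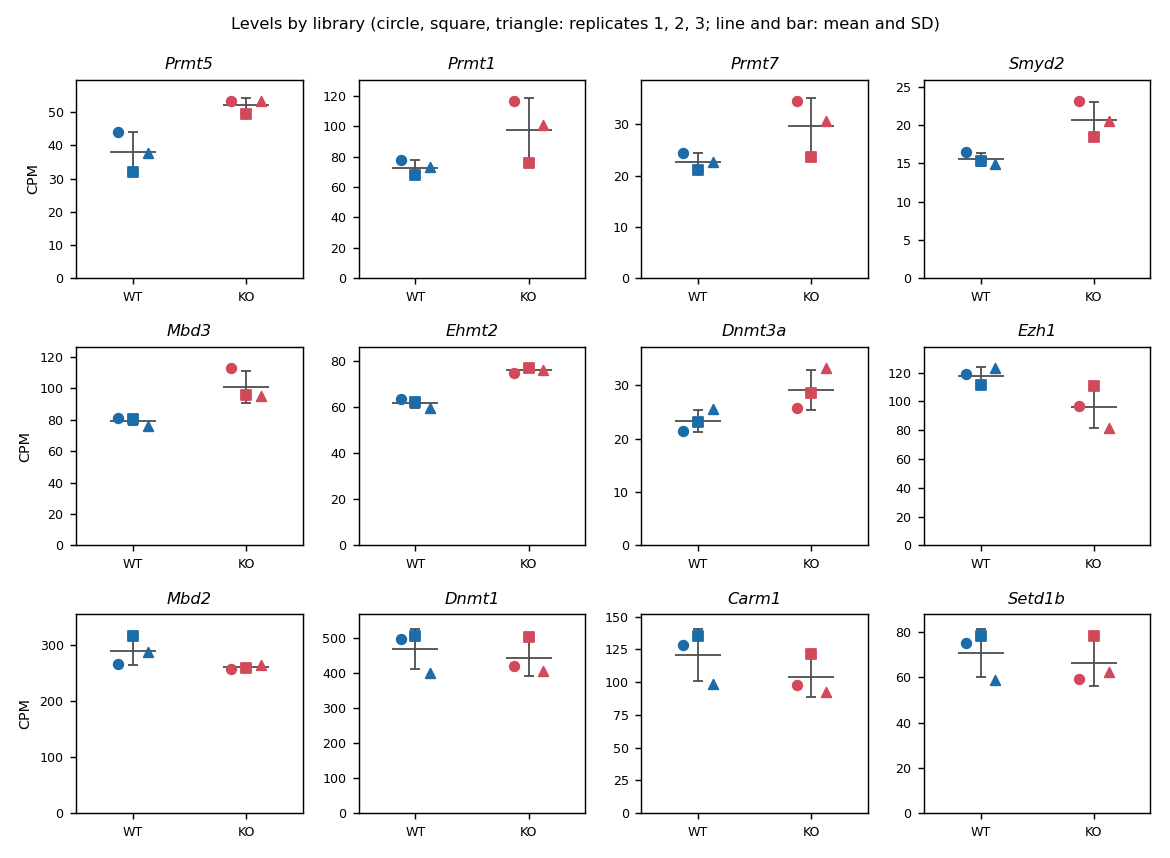
CPM of 12 members in each library, with WT in blue and KO in red, the replicate given by the shape, and a line and bar for the mean and SD of 3 libraries; each axis starts at 0. Prmt5, Prmt1, Prmt7, Smyd2, Mbd3, Ehmt2 and Dnmt3a have higher means in KO, with KO replicate 2 inside the WT range for Prmt1 and Prmt7, while Dnmt1, Carm1 and Setd1b have WT replicates 1 and 2 and KO replicate 2 at the top.

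For KO replicate 3 alone against WT, the comparison among the libraries with Xist, 28 of 31 members kept the sign they had with all libraries, and so did all 7 at an unadjusted p under 0.05. The median over the members was 0.0062. KO replicate 3 is among the libraries of both comparisons, so this is no independent check. By that comparison 2 members were higher at an unadjusted p under 0.05 (Prmt5 and Dnmt3a; 3.83% of all genes) and 1 lower (Ezh1; 4.35% of all genes), and 0 passed the adjusted threshold. Of the 6 members higher at an unadjusted p under 0.05 with all libraries, Mbd3, Smyd2, Prmt1, Prmt5 and Prmt7 had their highest value in KO replicate 1, Prmt5 by little, and Ehmt2 in KO replicate 2. The macrophage marker sum was also highest in KO replicate 1 (1673 CPM, against 1233 and 1501 in KO replicates 2 and 3), but without Marco it was highest in KO replicate 3 (1490.0 CPM, against 1282 and 1189 in KO replicates 1 and 2). The part of these markers, and of the lower erythroid marker sum in KO, in the members' values was not tested.

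**Figure D4:**
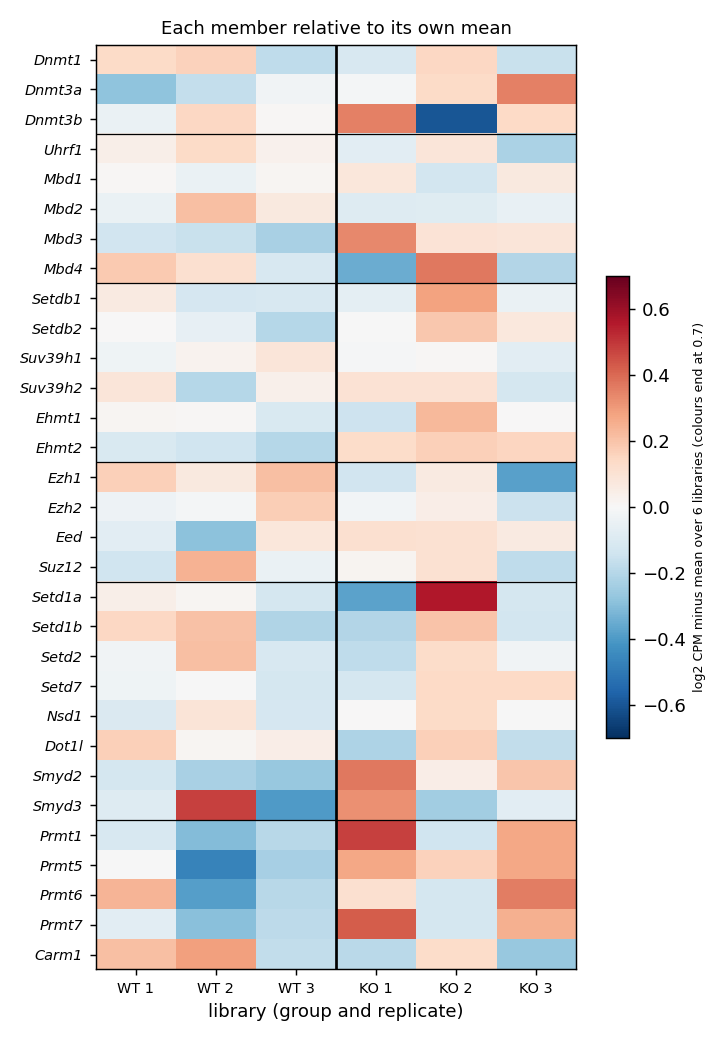
Log2 CPM of each member in each library minus its own mean over the 6 libraries, red above and blue below, with horizontal lines between roles and a vertical line between WT and KO. Ehmt2, Mbd3, Smyd2 and Prmt5 turn from blue or white to red at the vertical line, and Setd1a in KO replicate 2 is the strongest red.

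Lists of other genes of the same pathways each had 0 genes past the adjusted threshold by edgeR. DESeq2 called 1 gene in them, the partner Mllt3. Of 3 other arginine methyltransferases tested, 1 was higher at an unadjusted p under 0.05 and 0 lower: Prmt3, which methylates a ribosomal protein, had 15.4, 12.8 and 13.8 CPM in WT and 18.3, 18.6 and 19.6 CPM in KO (log2 difference 0.43, SE 0.153, adjusted p = 0.303 by edgeR). Its ranges did not overlap. Of 22 other lysine methyltransferases tested, 0 were past an unadjusted p of 0.05, 17 were below 0 and the median was -0.13 with TMM and -0.00098 by library totals. Among 24 partners of the methyltransferases, 5 were higher and 2 lower at that p, where over all genes 6.25% were higher and 5.98% lower, the shares to set beside the counts of each list here. The smallest p on each side belonged to Wiz, which binds G9a and GLP (49.6 ± 5.14 CPM in WT and 62.1 ± 5.94 in KO, mean ± SD, n = 3 each, log2 difference 0.32, adjusted p = 0.331 by edgeR), and Mllt3, a partner of Dot1l (160.0 ± 9.65 and 126 ± 6.64 CPM, log2 difference -0.35, adjusted p = 0.202 by edgeR). Next to them were Ash2l, a subunit of the H3K4 complexes (log2 difference 0.26), and Atf7ip, a partner of Setdb1 (log2 difference -0.27). Of 10 other DNA methylation and methyl-CpG genes, 1 was higher and 0 lower: Trdmt1, a Dnmt family member that methylates transfer RNA, had 1.73 to 3.76 CPM in WT and 4.63 to 5.16 in KO (log2 difference 0.98, SE 0.351, adjusted p = 0.307 by edgeR). Among 9 readers of methylated lysines, the polycomb protein Cbx7 was lower at an unadjusted p under 0.05 (log2 difference -0.48, adjusted p = 0.405 by edgeR). Of 9 genes of S-adenosylmethionine supply, Mtap and Ahcyl1 were higher at that p (log2 differences 0.56 and 0.24) and 0 were lower.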

How the data were processed

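Per the labels' protocols, libraries were made from 1 ug of total RNA with a TruSeq version 2 kit, which does not mark strand. Raw read counts for each symbol were deposited as a single table. STAR 2.5, HTSeq, DESeq2 and the mm10 build are listed, without roles, in the submitters' processing notes. Neither the annotation nor the strand setting is stated there. Of 35275 lines, 27 with names turned into dates were left out (0.340% to 0.383% of reads) and 122 lines sharing 52 symbols were summed. No pair of libraries in a group was within sampling noise.

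The comparison used edgeR 4.0.16 under R 4.3.3 (filterByExpr, TMM, robust quasi-likelihood F test, prior count 0.125) and adjusted by Benjamini-Hochberg over all 13721 genes. SE and 95% intervals come from the F statistic. DESeq2 1.42.0, limma-voom 3.58.1, other scalings and filters, single libraries left out, KO replicate 3 alone (its spread taken from the other libraries), a replicate block, and dropping X and Y genes, were alternatives. Tests were checked on simulated data with planted changes larger than any member's difference, so the check does not cover differences as small as these. Positions and exon lengths are from GENCODE M21 (mm10).

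Full values are given for members at an unadjusted p under 0.05, without overlap between groups, or highest or lowest per kilobase in a role, and of each other list up to 2 genes a side at that p. Members and lists were chosen with earlier results of these data known.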

Additional observations from a re-analysis of the deposited data

How the results depend on the processing

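No member passed an adjusted p of 0.05 under any of the 16 alternatives run; the lowest was 0.0771 by DESeq2, which gave 6 members no adjusted p. The 3 genes called over all genes became 10 with DESeq2 size factors, 8 with upper-quartile scaling, 33 by library totals, 397 by DESeq2, 228 with no filter, 9 with 1 CPM in 3 libraries, 9 without X and Y genes and 6 for KO replicate 3 alone. Leaving out single libraries gave 0 to 14: 14 without KO replicate 3, 12 without KO replicate 1, 1 without KO replicate 2 and 0 without WT replicate 2, where 1338 genes had an unadjusted p under 0.05. The 7 members at an unadjusted p under 0.05 became 3 for KO replicate 3 alone (8.18% of all genes), 3 without KO replicate 1 (8.81%), 4 without KO replicate 3 (8.18%) and 10 without KO replicate 2 (14.2%), beside 12.2% of all genes with all libraries. Members higher without overlap were 11 by library totals, 11 for KO replicate 3 alone and 6 to 10 without single libraries; those lower were 0, 9 and 2 to 7. Over all genes the shares were 21.4%, 31.8% and 12.7% to 16.9% higher, and 3.64%, 25.5% and 11.8% to 16.0% lower. With fewer libraries in a group, non-overlap is easier to reach by construction. The members' median log2 was 0.18 by library totals and 0.00096 to 0.084 without single libraries. The replicate number as a block called 9 genes and 0 members; same-numbered libraries had deviations correlated at 0.107, 0.0553 and 0.0123, so the numbers were not taken as pairs.

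Log2 differences near 0 turned sign in 14 members. By library totals they were Dnmt1 0.046, Dnmt3b 0.11, Mbd4 0.037, Suv39h1 0.080, Ezh2 0.050, Suz12 0.090, Setd1b 0.039, Setd2 0.079 and Smyd3 0.10. For KO replicate 3 alone they were Dnmt3b 0.10, Suv39h2 -0.10 and Setd1a -0.10. Mbd1 was at -0.0038 with DESeq2 size factors, -0.024 with upper-quartile scaling and -0.0042 by DESeq2, and Smyd3 at 0.0015 under the block. Without single libraries the ranges were -0.25 to 0.20 for Dnmt3b, -0.041 to 0.071 for Mbd1, -0.36 to 0.022 for Mbd4, -0.017 to 0.18 for Setdb1, -0.029 to 0.11 for Suv39h2, -0.055 to 0.12 for Ehmt1, -0.12 to 0.082 for Suz12, -0.24 to 0.26 for Setd1a, -0.15 to 0.048 for Setd2 and -0.22 to 0.25 for Smyd3. Scaling to library totals moves all genes of a library alike, and the median over all genes was 0.15, against 0.021 with TMM. The cause of the other turns of sign was not tested. With 3 libraries a group, the members' 95% intervals reached a median of 0.28 log2 to either side, and no member's difference, up to 0.46, passed the adjusted threshold.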
